A study of Mus musculus with 93 samples.

Results

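The livers of 2 classical inbred strains were compared on a low-fat diet: 7 129S1/SvImJ and 6 DBA/2J male mice on the control diet (CD), 13 of the 93 livers in the series. All 13 mice carried no transgene or mutation other than those of their strain, were moved to 30 °C, which is thermoneutral for a mouse, at 6 weeks of age, were fed CD with 10% of its energy from fat from 7 weeks, and were killed at 24 weeks of age after 17 weeks of diet. Every gene of the count table that passed the filter on low counts was tested, 19110 of 53465. The rest of the series holds the same strains on a western-style diet (WD, 40% of energy from fat) and 5 other strains, C57BL/6J, A/J, WSB/EiJ, CAST/EiJ and PWK/PhJ, on both diets. The question is how far the baseline liver program of the strains differs before a dietary challenge. The mice were bred in one facility, the cage of each is not in the labels, and the livers were perfused with saline. One mRNA library was sequenced from each liver, so a value is a level of messenger RNA in whole tissue.

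The liver makes bile acids from cholesterol, stores and burns fat, clears foreign compounds through cytochrome P450 enzymes, and secretes most plasma proteins, including complement and the acute phase proteins. In inbred mice, sequence variants fixed in a strain can act on each of these programs, for example by silencing a gene or by changing the level of a regulator. Most RNA comes from hepatocytes, and resident macrophages, endothelial cells, stellate cells and lymphocytes add the rest. In such bulk samples a smaller number of cells of a type and less RNA per cell cannot be told apart.

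Libraries held 40020424 to 47755542 reads on genes per mouse. In a principal component analysis of log2 CPM (read counts scaled to the library total and its composition), the first component took 54.7% of the variance and separated the strains, and the second took 8.73% and spread the DBA/2J mice. Pairs of mice correlated across genes at 0.987 to 0.992 within 129S1/SvImJ, 0.979 to 0.991 within DBA/2J and 0.955 to 0.969 between strains. The labels give a cohort: 129S1/SvImJ replicates 1 to 3 were in cohort 3 and DBA/2J replicates 1 to 3 in cohort 4, whereas 4 129S1/SvImJ and 3 DBA/2J mice shared cohort 5, so within-cohort values come from cohort 5. The summed level of 6 pancreatic acinar markers was 1164 CPM in DBA/2J replicate 2, against 33.2 to 50.1 CPM in the other DBA/2J mice and 12.0 to 19.7 CPM in 129S1/SvImJ. 129S1/SvImJ replicate 1 had the lowest RNA integrity number, 7.7, and the fewest reads. Hepatocyte markers summed to 90392 to 123831 CPM in 129S1/SvImJ and 100603 to 124310.0 CPM in DBA/2J, high in every mouse. Reads were aligned to the C57BL/6J genome, and the unmapped share was 3.34% to 5.33% in 129S1/SvImJ and 5.42% to 7.07% in DBA/2J, with no overlap (means 4.55% ± 0.664 SD and 6.45% ± 0.620 SD, two-sided exact permutation test, adjusted p = 0.0047 over 4 kinds of read). The multimapping, intergenic or intronic, and ambiguous shares did not pass this test, and the part of the unmapped reads in the results was not tested.

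A large share of the measured transcriptome differed, in nearly balanced numbers. Of 19110 genes, 6768 (35.4%) passed an adjusted p of 0.05 in limma-voom, 3296 (17.2%) higher in 129S1/SvImJ and 3472 (18.2%) higher in DBA/2J. The median size of a called difference was 0.60 on the log2 scale, and the median over all genes was -0.01. Called differences of at least 2-fold were lopsided, 781 genes higher in 129S1/SvImJ against 1317 higher in DBA/2J. In 3657 genes (19.1%), called or not, every mouse of one strain lay above every mouse of the other. A gene is described as changed below only if it passed this threshold, and a positive log2 fold change means a higher level in 129S1/SvImJ.

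**Figure D1:**
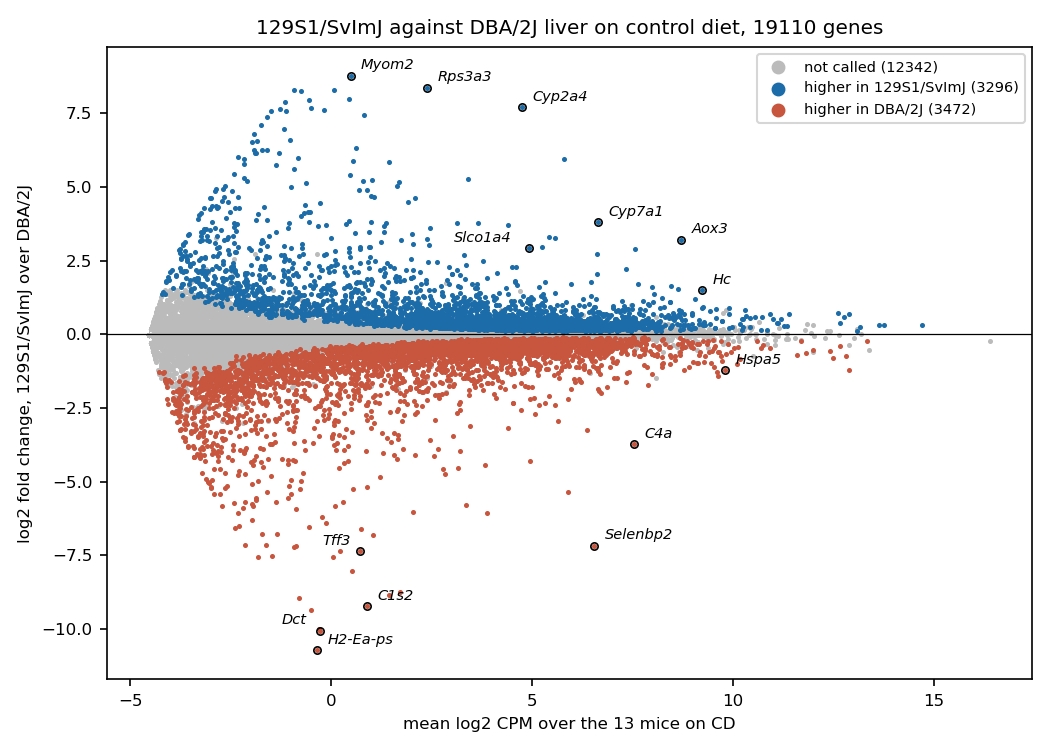
Each point is 1 of 19110 genes, with its mean log2 CPM over the 13 mice on the horizontal axis and the fitted log2 fold change, 129S1/SvImJ over DBA/2J, on the vertical axis. Blue and red points passed an adjusted p of 0.05, and genes of high level with wide gaps, such as Cyp2a4 at 7.70 and Selenbp2 at -7.17, lie far outside the band of the other genes.

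The same strains on WD, which are other mice (6 129S1/SvImJ and 7 DBA/2J), gave 6112 called genes (32.0%), 15.2% of all genes higher in 129S1/SvImJ and 16.8% higher in DBA/2J. Of the CD calls, 3345 were also called on WD in the same direction, which is 49.4% of the CD calls and 54.7% of the WD calls, and 227 were called on both diets in opposite directions. All 205 genes called with a difference of at least 16-fold on CD had the same sign on WD, and 201 of them were called there. Within cohort 5, whose mice are a subset of the 13, 4826 genes were called (22.7%, with 11.2% higher in 129S1/SvImJ and 11.5% higher in DBA/2J), and 6755 of the 6768 calls kept their sign. Called genes were spread over the genome, with 32.0% to 37.7% of the tested genes on each autosome and 32.2% on the X chromosome.

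At the extreme, a gene was read in one strain and almost silent in the other. Of the 205 calls of at least 16-fold, 85 were higher in 129S1/SvImJ and 120 in DBA/2J, and 98 were protein-coding and 54 pseudogenes. Among all tested genes, 38.0% of the protein-coding genes and 22.5% of the pseudogenes were called. Pseudogenes and near-identical copies share reads with their parents, so a variant that moves a read between copies can change their counts, and their values are uncertain. The same holds for genes that overlap another annotated gene, since the strand setting of the counting is not known. Among those named below these are, beside the cases given with their values, Cyp2a4, Apoa4, Ahr, Cyp2c55, Elovl3, Hc, Hamp2, Gbp10, Nlrp12, Arntl, Bhlhe41, mt-Co1, Mmp12, Glo1 and Col3a1.

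Genes nearly silent in 129S1/SvImJ included a complement protease pair and genes best known from other tissues. C1s2 (chr6:124624625-124636085 in GRCm38), a mouse copy of the complement protease C1s, had 43.5 to 52.0 CPM (median 49.0) in DBA/2J and 0.0420 to 0.105 CPM (median 0.0638) in 129S1/SvImJ, and the fitted log2 fold change was -9.22 ± 0.28 SE, adjusted p = 2.9e-46. Its neighbour C1rb (chr6:124570294-124581171), a copy of C1r, had 12.6 to 15.8 CPM (median 13.2) in DBA/2J and 0.0206 to 0.172 CPM (median 0.0631) in 129S1/SvImJ (-7.56 ± 0.40 SE, adjusted p = 5.7e-29). Both copies lie beside the parental genes C1s1 and C1ra, with which they could share reads. The means of the 5 other strains ran from 0.0900 CPM in C57BL/6J to 108 CPM in PWK/PhJ for C1s2, so that C57BL/6J stood with 129S1/SvImJ.

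Dct (chr14:118012790-118052244), the melanin enzyme dopachrome tautomerase, had 8.67 to 44.1 CPM (median 19.1) in DBA/2J and 0 to 0.0434 CPM (median 0) in 129S1/SvImJ (-10.05 ± 1.18 SE, adjusted p = 2.4e-11). The melanocortin receptor accessory protein gene Mrap2 (chr9:87144306-87184045) had 9.50 to 23.6 CPM (median 12.2) in DBA/2J and 0 to 0.0867 CPM (median 0) in 129S1/SvImJ (-9.37 ± 0.64 SE, adjusted p = 2.2e-22). Camk2b (chr11:5969644-6066362), a calcium/calmodulin-dependent kinase subunit, had 19.8 to 28.3 CPM (median 24.2) in DBA/2J and 0.0211 to 0.189 CPM (median 0.105) in 129S1/SvImJ (-8.04 ± 0.71 SE, adjusted p = 8.9e-17). None of these ranges overlapped. The monooxygenase-like gene Moxd1 (chr10:24223517-24302790) was far more variable in DBA/2J, with 7.62 to 204 CPM (median 79.1) in DBA/2J and 0.0211 to 0.418 CPM (median 0.126) in 129S1/SvImJ (-8.86 ± 1.53 SE, adjusted p = 1.6e-06), and its mean reached 925 CPM in CAST/EiJ. For Srd5a2 (chr17:74016955-74047916), a steroid 5-alpha-reductase, 1 read was counted over the 7 129S1/SvImJ livers against 640 over the 6 DBA/2J livers, a ratio of 766 (exact 95% interval 137 to 30306) that covers counting error only. The DBA/2J mice held 2.01 to 2.89 CPM of Srd5a2, and an unnamed transcript overlaps it on the same strand. The processed pseudogene Gm13394 (chr2:28933610-28934609) had 65.4 to 91.7 CPM (median 76.7) in DBA/2J and 0.108 to 0.277 CPM (median 0.190) in 129S1/SvImJ (-8.74 ± 0.30 SE, adjusted p = 4.8e-42).

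In the other direction, a wide gap at a high level was that of Cyp2a4 (chr7:26307169-26315088), a steroid 15-alpha-hydroxylase of the P450 family, with 252 to 361 CPM (median 318) in 129S1/SvImJ and 0.438 to 3.01 CPM (median 1.84) in DBA/2J (7.70 ± 1.19 SE, adjusted p = 1.1e-07). Cyp2a4 is nearly identical to Cyp2a5, so the split of reads between them is uncertain. The muscle protein gene Myom2 (chr8:15057653-15133541) had 12.9 to 18.2 CPM (median 15.2) in 129S1/SvImJ and 0 to 1.17 CPM (median 0.0112) in DBA/2J (8.77 ± 0.97 SE, adjusted p = 2.3e-12), where all but 1 DBA/2J liver, replicate 3, was near 0. Slc38a5 (chrX:8271133-8280179), an amino acid transporter, had 7.25 to 12.9 CPM (median 9.54) in 129S1/SvImJ and 0 to 0.416 CPM (median 0) in DBA/2J (8.30 ± 0.64 SE, adjusted p = 1.5e-19), and the means of the 5 other strains, 0.171 CPM in CAST/EiJ to 1.01 CPM in WSB/EiJ, were all below the 129S1/SvImJ range. Wdr72 (chr9:74110356-74283308) had 3.84 to 9.64 CPM (median 5.22) in 129S1/SvImJ and 0 to 0.0442 CPM (median 0.0110) in DBA/2J (7.95 ± 0.67 SE, adjusted p = 1.3e-17), again above the other 5 strains, which reached 0.200 CPM. Ifi44l (chr3:151758737-151762892), an interferon-inducible gene, had 946 reads over the 129S1/SvImJ livers and 1 over the DBA/2J livers, a ratio of 790.3 (exact 95% interval 142 to 31248), with 1.49 to 4.60 CPM in the 129S1/SvImJ mice. The processed ribosomal pseudogene Rps3a3 (chr13:108670603-108671397) had 66.7 to 78.9 CPM (median 70.7) in 129S1/SvImJ and 0.132 to 0.269 CPM (median 0.230) in DBA/2J (8.37 ± 0.23 SE, adjusted p = 2.3e-49).

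Loci at which these strains are known to carry variants gave a mixed picture. H2-Ea-ps (chr17:34341959-34344645), the MHC class II E alpha gene that a promoter deletion silences in the H2-b haplotype carried by 129S1/SvImJ and C57BL/6J, had 1 read over the 7 129S1/SvImJ livers and 5882 over the 6 DBA/2J livers, a ratio of 7041 (exact 95% interval 1263 to 278144), and 15.2 to 26.1 CPM in DBA/2J. Hc (chr2:34983331-35061438), which encodes complement C5 and has a frameshift in DBA/2J, had 871 to 1183 CPM (median 964) in 129S1/SvImJ and 266 to 393 CPM (median 359.6) in DBA/2J, a 2.84-fold difference without overlap (1.51 ± 0.11 SE, adjusted p = 2.0e-20). Klrd1, the CD94 subunit of natural killer receptors that DBA/2J lacks, had 0.0434 to 0.271 CPM (median 0.168) in 129S1/SvImJ and 0 to 0.112 CPM (median 0.0549) in DBA/2J and passed the test (1.99 ± 0.69 SE, adjusted p = 0.018), although leaving out DBA/2J replicate 4 or 6 ended the call (adjusted p = 0.069 and 0.068). Gpnmb, which has a stop codon in DBA/2J, had 0.0425 to 0.589 CPM (median 0.248) in 129S1/SvImJ and 0 to 0.0441 CPM (median 0.0220) in DBA/2J and did not pass on CD (3.25 ± 2.74 SE, adjusted p = 0.39), but on WD, where 129S1/SvImJ held 10.7 to 31.6 CPM and DBA/2J 0 to 0.143 CPM, it did (log2 fold change 8.26, adjusted p = 1.4e-04). The difference between diets did not pass for Gpnmb (adjusted p = 0.37). Its CD result depended on the method. DESeq2 gave 3.95, adjusted p = 3.1e-04, and limma-voom on the 7 mice of cohort 5 alone gave 3.55, adjusted p = 0.0027. Myo5a, mutated in the dilute coat of DBA/2J, had 0.574 to 0.902 CPM (median 0.820) in 129S1/SvImJ and 0.509 to 0.839 CPM (median 0.698) in DBA/2J and did not pass (0.10 ± 0.39 SE, adjusted p = 0.87). Neither did Glo1 (-0.12, adjusted p = 0.45) or Alad (-0.03, adjusted p = 0.83), which are duplicated in some inbred strains. On WD Myo5a was called (1.59, adjusted p = 4.8e-05), and its difference between diets passed (adjusted p = 0.048). Klrd1 was called on WD as well (3.18, adjusted p = 1.8e-05), and its difference between diets did not pass (adjusted p = 0.47). Glo1 and Alad were not called on WD. Tyrp1, the brown coat gene, fell below the filter on low counts.

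The caspase locus and Disc1, at which 129 substrains carry deletions, gave lower levels in 129S1/SvImJ on CD but not on WD. Casp4, the inflammatory caspase that senses lipopolysaccharide, had 0.872 to 1.58 CPM (median 0.997) in 129S1/SvImJ and 1.24 to 2.30 CPM (median 2.08) in DBA/2J (-0.79 ± 0.25 SE, adjusted p = 0.0094). Its neighbour Casp1 had 1.80 to 2.54 CPM (median 2.08) in 129S1/SvImJ and 2.76 to 4.37 CPM (median 3.31) in DBA/2J (-0.70 ± 0.16 SE, adjusted p = 3.2e-04) and its ranges did not overlap. Disc1 was barely read, with 0 to 0.197 CPM (median 0.0413) in 129S1/SvImJ and 0.112 to 0.261 CPM (median 0.167) in DBA/2J (-1.97 ± 0.49 SE, adjusted p = 7.0e-04). Within cohort 5 the Casp4 difference was -0.49, adjusted p = 0.38. On WD none of these genes was called (Casp4 0.04, adjusted p = 0.91, Casp1 0.11, adjusted p = 0.65, Disc1 -0.14, adjusted p = 0.83). The difference between diets passed for Casp1 (adjusted p = 0.011) and not for Casp4 (adjusted p = 0.099) or Disc1 (adjusted p = 0.054).

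**Figure D2:**
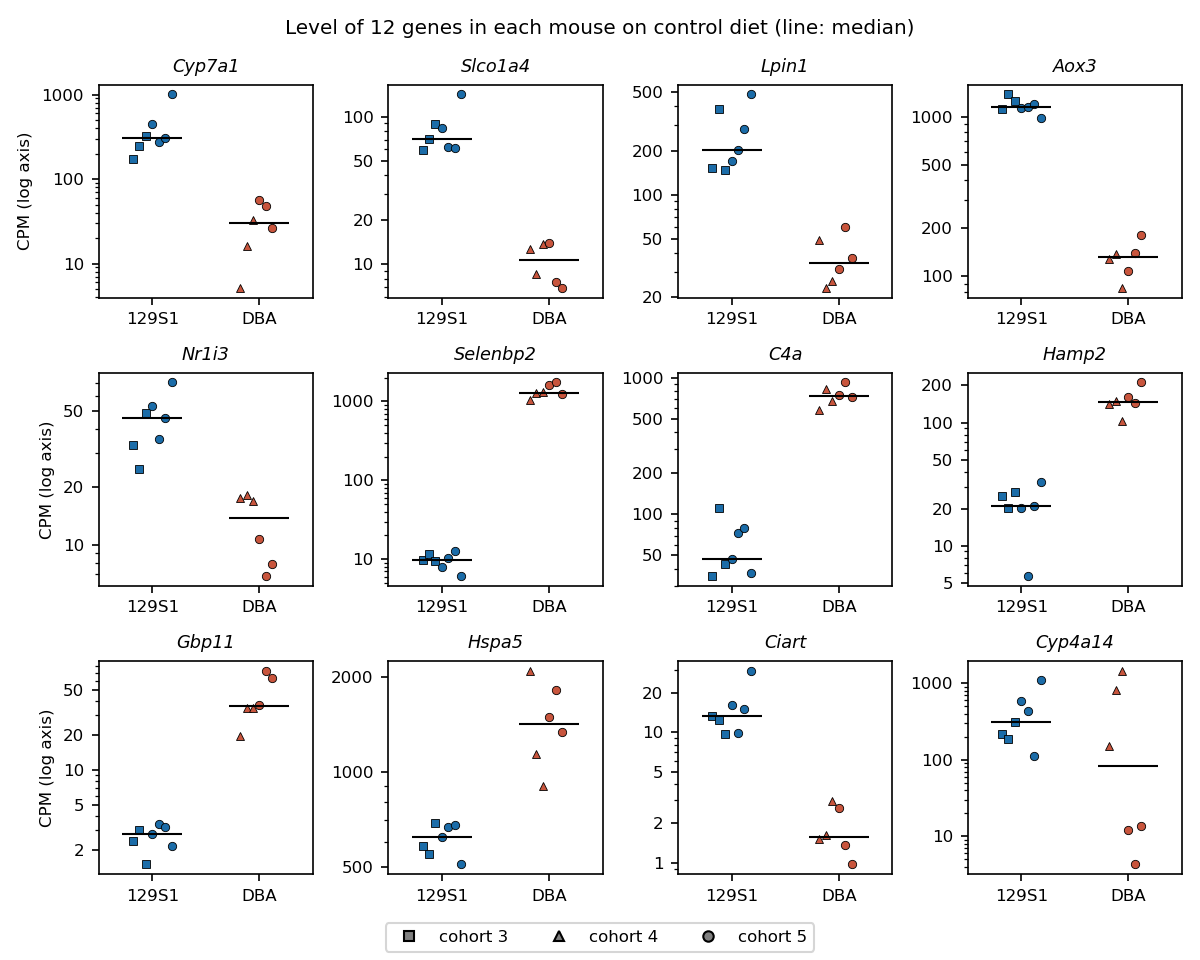
Each panel shows the CPM of 1 gene on a logarithmic axis in the 7 129S1/SvImJ (blue) and 6 DBA/2J (red) mice on CD, with symbols for cohort and a line at the strain median. The strains do not overlap for any gene but Cyp4a14, for which the 3 DBA/2J mice of cohort 5 lie at 4.31 to 13.5 CPM and the 3 of cohort 4 at 152 to 1456 CPM.

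More bile acid genes were higher in 129S1/SvImJ than in DBA/2J. Of 23 tested genes for bile acid synthesis, transport and control, 9 were higher in 129S1/SvImJ, 2 higher in DBA/2J and 12 did not pass, with a median log2 fold change of 0.25 beside -0.01 for all genes and a background of 35.4% called. Cyp7a1, the rate-limiting enzyme of bile acid synthesis from cholesterol, had 175 to 1010.2 CPM (median 304) in 129S1/SvImJ and 5.15 to 57.1 CPM (median 29.8) in DBA/2J. The strains did not overlap, the difference was 14.0-fold (3.81 ± 0.57 SE, adjusted p = 4.4e-08), and within cohort 5 it was 3.41, adjusted p = 3.1e-05. Slco1a4, a basolateral transporter that takes up organic anions and bile acids, had 59.9 to 142 CPM (median 70.6) in 129S1/SvImJ and 6.93 to 14.0 CPM (median 10.7) in DBA/2J (2.93 ± 0.32 SE, adjusted p = 9.9e-13). Slc10a1, the sodium-dependent bile acid importer of hepatocytes, had 1188 to 1385 CPM (median 1287) in 129S1/SvImJ and 597 to 739 CPM (median 695) in DBA/2J (0.89 ± 0.20 SE, adjusted p = 1.6e-04). Abcg5, one part of the canalicular sterol exporter, had 132 to 149 CPM (median 139) in 129S1/SvImJ and 54.6 to 68.4 CPM (median 63.3) in DBA/2J (1.19 ± 0.14 SE, adjusted p = 9.5e-12). It overlaps its partner Abcg8 on the opposite strand. The 2 genes higher in DBA/2J were Cyp2c70, which makes muricholic acids, and Abcb11, the canalicular bile salt export pump, both chosen after their values were seen.

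Lipid genes differed in both directions. Among 22 genes of fatty acid and triglyceride synthesis, 7 were higher in 129S1/SvImJ and 5 in DBA/2J (median 0.04), 54.5% called beside 35.4% of all genes. Within cohort 5, where 22.7% of all genes were called, the counts were 2 and 5 (median -0.25), so that the list leaned the other way there. Lpin1, a phosphatidate phosphatase that also acts as a coregulator of fat oxidation genes, had 148 to 484 CPM (median 203) in 129S1/SvImJ and 23.2 to 60.7 CPM (median 34.1) in DBA/2J (2.72 ± 0.41 SE, adjusted p = 4.4e-08). Scd1, the desaturase that makes oleate, had 3335 to 12324 CPM (median 10580.1) in 129S1/SvImJ and 9038 to 21448 CPM (median 11603) in DBA/2J, and the strains overlapped (-0.53 ± 0.29 SE, adjusted p = 0.15), whereas within cohort 5 the difference was -1.02, adjusted p = 0.049. Of 25 genes of lipid droplets and fatty acid uptake, 8 were higher in DBA/2J and 2 in 129S1/SvImJ (median -0.15), 40% called beside 35.4%. Within cohort 5, 4 were higher in DBA/2J and 2 in 129S1/SvImJ, and the median had the opposite sign (0.37). The lipoprotein receptor gene Vldlr had 6.50 to 10.6 CPM (median 7.44) in 129S1/SvImJ and 0.179 to 1.68 CPM (median 0.681) in DBA/2J (3.68 ± 0.46 SE, adjusted p = 1.7e-10). Fabp2, a fatty acid binding protein, had 54.2 to 99.9 CPM (median 74.1) in DBA/2J and 29.9 to 40.9 CPM (median 33.2) in 129S1/SvImJ (-1.11 ± 0.15 SE, adjusted p = 4.1e-09). Plin2, a coat protein of lipid droplets, had 259 to 1688 CPM (median 681) in DBA/2J and 205 to 537 CPM (median 352) in 129S1/SvImJ and the strains overlapped (-1.11 ± 0.30 SE, adjusted p = 0.0022). Within cohort 5 the Plin2 difference was -0.25, adjusted p = 0.71.

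More fatty acid oxidation genes were called within cohort 5 than over all 13 mice. Of 29 genes, 7 were higher in 129S1/SvImJ and 1 in DBA/2J (median 0.17) over all 13 mice, 27.6% called beside 35.4% of all genes, and within cohort 5 20 were higher in 129S1/SvImJ and none in DBA/2J (median 0.57, beside a cohort 5 background of 11.2% higher in 129S1/SvImJ). Acadm, the medium-chain acyl-CoA dehydrogenase, had 412 to 601 CPM (median 436) in 129S1/SvImJ and 215 to 391 CPM (median 268) in DBA/2J (0.71 ± 0.11 SE, adjusted p = 7.4e-08), and 1.06, adjusted p = 9.5e-10 in cohort 5. Cyp4a14, a fatty acid omega-hydroxylase that PPAR-alpha induces strongly, was chosen after its values were seen. It had 152 to 1456 CPM in the DBA/2J mice of cohort 4, 4.31 to 13.5 CPM in those of cohort 5, and 110.1 to 1087 CPM in 129S1/SvImJ, whose cohorts overlapped. The strain means were 419.9 ± 336 SD CPM in 129S1/SvImJ and 407 ± 599 SD CPM in DBA/2J. Over all mice the limma-voom difference was 2.20 ± 0.87 SE, adjusted p = 0.039, but edgeR gave 0.0467, adjusted p = 0.98 and DESeq2 0.0388, adjusted p = 0.98. The call was also lost when only the 13 mice were fitted (adjusted p = 0.16), and when 129S1/SvImJ replicate 3, 4, 5 or 7 or DBA/2J replicate 4, 5 or 6 was left out (adjusted p = 0.051 to 0.23). Within cohort 5 it was 5.56, adjusted p = 2.8e-04. Cohort 4 held no 129S1/SvImJ mouse, so cohort and strain cannot be told apart there.

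Of the cholesterol synthesis genes, a smaller share was called than of all genes, 20% against 35.4%. Of 20, 2 were higher in 129S1/SvImJ, 2 higher in DBA/2J and 16 did not pass (median 0.02), and within cohort 5 the counts were 1 and 3 (median -0.18). Of 15 genes of the sterol-sensing SREBP pathway, 5 were higher in 129S1/SvImJ and 3 in DBA/2J (53.3% called), and within cohort 5 the counts were 2 and 2 (median -0.15). Insig2, which holds the sterol-sensing SREBP complex in the endoplasmic reticulum, had 324 to 549.9 CPM (median 460.0) in DBA/2J and 116 to 311 CPM (median 242) in 129S1/SvImJ (-0.97 ± 0.21 SE, adjusted p = 1.4e-04). Within cohort 5 it differed by -0.79, adjusted p = 0.031, but in a fit to the 7 mice of that cohort alone by -0.80, adjusted p = 0.065. Of 20 apolipoprotein and lipoprotein genes, 4 were higher in 129S1/SvImJ and 3 in DBA/2J (35% called, the share of all genes being 35.4%). Apoa4, an apolipoprotein of triglyceride-rich particles, had 385 to 517 CPM (median 392) in 129S1/SvImJ and 76.0 to 268 CPM (median 134) in DBA/2J (1.62 ± 0.36 SE, adjusted p = 1.9e-04). In glucose metabolism, 9 of 24 genes were higher in 129S1/SvImJ and 1, the insulin receptor Insr, was higher in DBA/2J (median 0.19, 41.7% called). Of 44 amino acid and urea cycle genes, 11 were higher in 129S1/SvImJ and 5 in DBA/2J (36.4% called). The urea cycle enzyme Asl had 416 to 642 CPM (median 485) in 129S1/SvImJ and 208 to 259 CPM (median 226) in DBA/2J (1.11 ± 0.13 SE, adjusted p = 7.6e-12). One-carbon genes counted 10 and 5 of 23 (65.2%), and the glycine methyltransferase Gnmt, which disposes of excess methyl groups, had 1462 to 1933 CPM (median 1693) in 129S1/SvImJ and 837 to 1059 CPM (median 923) in DBA/2J (0.83 ± 0.13 SE, adjusted p = 5.2e-08).

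Drug-metabolizing genes differed in both directions within the same families. In P450 families 1 and 2, 6 of 36 were higher in 129S1/SvImJ and 7 in DBA/2J, 36.1% called and so close to the 35.4% of all genes. In families 3 and 4 the counts were 3 and 7 of 24 (41.7%), Cyp4a14 among the former, and within cohort 5 they leaned the other way, 5 and 3. Cyp2c39 had 72.4 to 284 CPM (median 119) in 129S1/SvImJ and 6.47 to 22 CPM (median 13.1) in DBA/2J (3.29 ± 0.49 SE, adjusted p = 4.8e-08), whereas Cyp2c55 had 2.63 to 7.20 CPM (median 4.35) in DBA/2J and 0.169 to 0.394 CPM (median 0.289) in 129S1/SvImJ (-3.92 ± 0.62 SE, adjusted p = 2.0e-07). Cyp3a13 had 137 to 266 CPM (median 168) in 129S1/SvImJ and 41.3 to 51.0 CPM (median 44.8) in DBA/2J (2.05 ± 0.14 SE, adjusted p = 2.7e-22), and the main inducible Cyp3a11 had 501 to 1049.5 CPM (median 640.4) in DBA/2J and 226 to 462 CPM (median 254) in 129S1/SvImJ (-1.22 ± 0.24 SE, adjusted p = 2.4e-05). Within cohort 5 the Cyp3a11 difference was -0.71, adjusted p = 0.10. Cyp3a25 had 807 to 1165 CPM (median 1035) in DBA/2J and 378 to 619 CPM (median 508) in 129S1/SvImJ (-0.97 ± 0.16 SE, adjusted p = 6.5e-07). Cyp4a32 had 79.1 to 814 CPM (median 304) in DBA/2J and 17.0 to 40.5 CPM (median 28.8) in 129S1/SvImJ (-3.25 ± 0.37 SE, adjusted p = 6.4e-12). Its DBA/2J values split by cohort, 445 to 814 CPM in cohort 4 and 79.1 to 162 CPM in cohort 5, within which the difference was -2.12, adjusted p = 1.1e-04. The ethanol-oxidizing Cyp2e1 had 7579 to 11834 CPM (median 9735) in 129S1/SvImJ and 4227 to 7505 CPM (median 6325) in DBA/2J (0.70 ± 0.19 SE, adjusted p = 0.0028). None of these ranges overlapped, and members of the Cyp2c, Cyp3a and Cyp4a clusters are similar enough in sequence to share reads.

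Of 18 regulators and partners of these enzymes, 7 were higher in 129S1/SvImJ and 2 in DBA/2J (median 0.18, 50% called beside 35.4% of all genes). The 2 higher in DBA/2J were Fmo2 and Cyb5r3. Aox3, an aldehyde oxidase that acts on many nitrogen heterocycles, had 982 to 1384 CPM (median 1146) in 129S1/SvImJ and 84.5 to 182 CPM (median 132) in DBA/2J, a 9.24-fold difference (3.21 ± 0.19 SE, adjusted p = 1.3e-25). Nr1i3, the constitutive androstane receptor that senses xenobiotics and induces Cyp2b genes, had 24.8 to 70.3 CPM (median 45.9) in 129S1/SvImJ and 6.84 to 18.2 CPM (median 13.8) in DBA/2J (1.81 ± 0.26 SE, adjusted p = 1.8e-08), and it overlaps Tomm40l on the opposite strand. The aryl hydrocarbon receptor Ahr had 23.5 to 37.8 CPM (median 33.2) in 129S1/SvImJ and 12.2 to 21.2 CPM (median 17.6) in DBA/2J (0.95 ± 0.16 SE, adjusted p = 1.8e-06). Among 22 glutathione transferases, 6 were higher in 129S1/SvImJ and 4 in DBA/2J (45.5% called), and Gstp1 had 1024 to 1262 CPM (median 1221) in DBA/2J and 354 to 937 CPM (median 666) in 129S1/SvImJ (-0.89 ± 0.27 SE, adjusted p = 0.0065). Among 29 glucuronosyl- and sulfotransferases the counts were 7 and 6 (44.8%). Ugt2b38 had 2.58 to 9.15 CPM (median 7.04) in DBA/2J and 0 to 0.147 CPM (median 0.0619) in 129S1/SvImJ (-6.54 ± 1.58 SE, adjusted p = 5.3e-04), and Sult5a1 had 4.08 to 13.3 CPM (median 8.99) in DBA/2J and 0.759 to 1.94 CPM (median 1.36) in 129S1/SvImJ (-2.55 ± 0.43 SE, adjusted p = 1.0e-06).

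Of the major urinary protein genes, and of the genes of the growth hormone axis and sex-biased genes, about the share of all genes was called. It was 33.3% in each of these 2 lists beside 35.4%, and the called ones were mostly higher in DBA/2J. Major urinary proteins (Mup) are pheromone carriers made by the male liver. Their genes form a cluster of near-identical copies on chromosome 4, so single members are uncertain. Of 21 tested, 7 were higher in DBA/2J and none in 129S1/SvImJ (median -1.29). In 10 of them the ranges did not overlap, with DBA/2J higher. Among all tested genes 19.1% had such ranges, in either direction. Near-identical copies can share reads. The 10 are therefore not separate observations. On WD no Mup gene was called in either direction (limma-voom), and the WD median was -0.07. Mup20, or darcin, had 1149 to 1562 CPM (median 1346) in DBA/2J and 194 to 939 CPM (median 534) in 129S1/SvImJ (-1.42 ± 0.38 SE, adjusted p = 0.0017), and -1.27, adjusted p = 0.070 in cohort 5. Mup9 had 29.0 to 218 CPM (median 109) in DBA/2J and 10.6 to 25.4 CPM (median 19.6) in 129S1/SvImJ (-2.34 ± 0.32 SE, adjusted p = 2.6e-09). Mup16 had 0.426 to 5.81 CPM (median 2.64) in DBA/2J and 0.0650 to 0.172 CPM (median 0.105) in 129S1/SvImJ (-4.25 ± 1.21 SE, adjusted p = 0.0033). Mup3, the member of this list with the highest CPM, had 7943 to 9267 CPM (median 8737) in DBA/2J and 4742 to 8445 CPM (median 6985) in 129S1/SvImJ, and the ranges overlapped (-0.35 ± 0.48 SE, adjusted p = 0.62).

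In the list of growth hormone and sex-biased genes, 8 of 27 were higher in DBA/2J and 1 in 129S1/SvImJ (median -0.27). Well-known male-biased members did not pass, among them Hsd3b5 (-0.19, adjusted p = 0.89) and Slco1a1 (0.13, adjusted p = 0.85), named after their values were seen. Selenbp2, an acetaminophen-binding protein, showed the largest gap, 144-fold, with 1042 to 1746 CPM (median 1295) in DBA/2J and 6.09 to 12.5 CPM (median 9.75) in 129S1/SvImJ (-7.17 ± 0.37 SE, adjusted p = 5.5e-30). Selenbp1 is a close homologue, and the means of the 5 other strains ran from 10.7 CPM in A/J to 1748 CPM in CAST/EiJ. Serpina12, the serpin vaspin, had 75.9 to 291 CPM (median 153) in DBA/2J and 3.10 to 13.1 CPM (median 8.42) in 129S1/SvImJ (-4.30 ± 0.52 SE, adjusted p = 6.4e-11). Elovl3, a male-biased fatty acid elongase, had 366 to 758 CPM (median 431) in DBA/2J and 35.3 to 197 CPM (median 163) in 129S1/SvImJ (-1.73 ± 0.61 SE, adjusted p = 0.019). Within cohort 5 it was -1.73, adjusted p = 0.14, and without 129S1/SvImJ replicate 7, the lowest, its adjusted p was 0.071. The 1 gene higher in 129S1/SvImJ was Igfbp3, a carrier of insulin-like growth factors, with 50.1 to 66.1 CPM (median 62.2) in 129S1/SvImJ and 20.1 to 29.3 CPM (median 22.6) in DBA/2J (1.38 ± 0.14 SE, adjusted p = 9.2e-14).

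**Figure D3:**
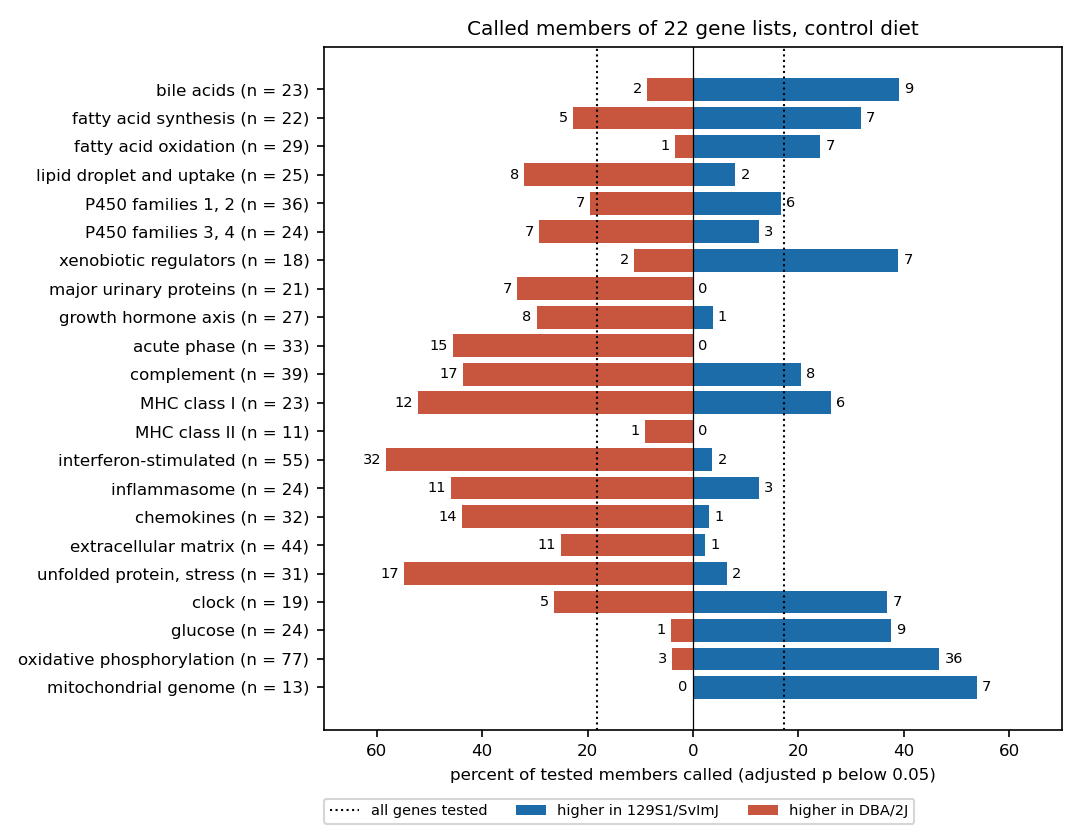
Bars give the percent of tested members of each of 22 gene lists that were called on CD, to the right for higher in 129S1/SvImJ and to the left for higher in DBA/2J, with the number of genes at the bar ends. Dotted lines mark the same share over all genes tested, 17.2% and 18.2%, and the interferon-stimulated list reaches furthest to the left with 32 of 55 genes.

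Secreted defence proteins leaned toward DBA/2J. Of 33 acute phase genes, 15 were higher in DBA/2J and none in 129S1/SvImJ (limma-voom, median -0.50, 45.5% called beside 35.4% of all genes), and within cohort 5 the counts were 9 and 0. Without DBA/2J replicate 2, 12 were higher in DBA/2J. The fibrinogen alpha chain gene Fga had 8380.5 to 10346 CPM (median 9829) in DBA/2J and 4440.4 to 6828 CPM (median 5719) in 129S1/SvImJ (-0.74 ± 0.18 SE, adjusted p = 4.6e-04). Serpina3k, a plasma serpin that overlaps its paralogue Serpina3m, had 10176 to 13863 CPM (median 11866) in DBA/2J and 3936 to 5857 CPM (median 5345) in 129S1/SvImJ (-1.21 ± 0.20 SE, adjusted p = 3.7e-07). Socs3, which the acute phase cytokine signal induces and which blocks that signal, had 17.7 to 38.6 CPM (median 21.1) in DBA/2J and 4.21 to 15.6 CPM (median 10.4) in 129S1/SvImJ (-1.40 ± 0.33 SE, adjusted p = 3.3e-04). Among 21 iron genes, 4 were higher in 129S1/SvImJ and 6 in DBA/2J (47.6% called). The hepcidin genes, whose product lowers iron export, moved in opposite directions. Hamp had 519.9 to 804 CPM (median 615) in 129S1/SvImJ and 151 to 313 CPM (median 229) in DBA/2J (1.52 ± 0.45 SE, adjusted p = 0.0054). Its copy Hamp2 had 103 to 212 CPM (median 147) in DBA/2J and 5.68 to 33.0 CPM (median 21.1) in 129S1/SvImJ (-2.92 ± 0.32 SE, adjusted p = 1.2e-12). The pair are close enough to share reads, and within cohort 5 the Hamp difference was 1.07, adjusted p = 0.22.

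Of 39 complement genes, 17 were higher in DBA/2J and 8 in 129S1/SvImJ (median -0.25), so that 64.1% were called beside 35.4% of all genes. C4a (chr17:34809092-34823464), the sex-limited form of complement C4, had 582 to 932 CPM (median 743) in DBA/2J and 35.2 to 112 CPM (median 47.4) in 129S1/SvImJ (-3.73 ± 0.32 SE, adjusted p = 1.9e-17). Its paralogue C4b had 1454 to 2214 CPM (median 1862) in DBA/2J and 1545 to 2362 CPM (median 1834) in 129S1/SvImJ and did not pass (0.02 ± 0.14 SE, adjusted p = 0.95), and reads may be split between these copies. Cfhr2, a factor H related gene, had 563 to 669 CPM (median 573) in 129S1/SvImJ and 163 to 210.3 CPM (median 192) in DBA/2J (1.62 ± 0.08 SE, adjusted p = 6.6e-30). C3, the central component, had 6991 to 9685 CPM (median 9027) in DBA/2J and 7059.6 to 9537 CPM (median 7839) in 129S1/SvImJ and did not pass (-0.13 ± 0.11 SE, adjusted p = 0.40). With C1s2 and C1rb at the other end, the complement list spans from -9.22 to 1.62 on the log2 scale.

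Most of the listed interferon-stimulated genes that were called were higher in DBA/2J. The list does not hold Ifi44l, described above, which was called higher in 129S1/SvImJ (7.64 ± 0.46 SE, adjusted p = 1.3e-25). Of 55 tested, 32 were higher in DBA/2J, 2, Ifi203 and Ifih1, in 129S1/SvImJ, and 21 did not pass (median -0.67, 61.8% called beside 35.4% of all genes). With cohort as a covariate 21 were higher in DBA/2J, and within cohort 5 14 were higher in DBA/2J and 5 in 129S1/SvImJ, beside 11.5% and 11.2% of all genes there. Gbp11, a guanylate-binding GTPase that acts on intracellular pathogens, had 19.9 to 73.4 CPM (median 36.0) in DBA/2J and 1.51 to 3.39 CPM (median 2.80) in 129S1/SvImJ (-3.96 ± 0.54 SE, adjusted p = 2.6e-09). Gbp10 had 3.61 to 6.17 CPM (median 5.15) in DBA/2J and 0.504 to 2.25 CPM (median 1.62) in 129S1/SvImJ (-2.05 ± 0.48 SE, adjusted p = 3.8e-04), and the Gbp genes of this cluster are close paralogues. Ifi202b, a DNA sensor regulator, had 11.7 to 17.9 CPM (median 14.1) in DBA/2J and 2.43 to 4.12 CPM (median 3.29) in 129S1/SvImJ (-2.15 ± 0.14 SE, adjusted p = 4.1e-24). Ifi27 had 132 to 199 CPM (median 138) in DBA/2J and 24.7 to 134 CPM (median 84.2) in 129S1/SvImJ, with the highest 129S1/SvImJ mouse just inside the DBA/2J range (-1.14 ± 0.21 SE, adjusted p = 3.8e-06), and -0.47, adjusted p = 0.056 in cohort 5.

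Of 23 genes of antigen presentation by MHC class I, 12 were higher in DBA/2J and 6 in 129S1/SvImJ, 78.3% called in all beside 35.4% of all genes tested. B2m, the invariant light chain of all class I molecules, had 1802 to 2299 CPM (median 1967) in DBA/2J and 1364 to 1709.9 CPM (median 1601) in 129S1/SvImJ (-0.37 ± 0.08 SE, adjusted p = 8.7e-05). H2-Bl had 12.6 to 18.1 CPM (median 15.0) in 129S1/SvImJ and 0.482 to 0.956 CPM (median 0.679) in DBA/2J (4.47 ± 0.32 SE, adjusted p = 3.8e-21), H2-Q7 had 38.0 to 56.4 CPM (median 48.0) in 129S1/SvImJ and 17.2 to 25.7 CPM (median 18.4) in DBA/2J (1.26 ± 0.19 SE, adjusted p = 3.4e-08) and H2-Q2 had 2.65 to 4.73 CPM (median 3.60) in DBA/2J and 0.399 to 0.997 CPM (median 0.547) in 129S1/SvImJ (-2.54 ± 0.20 SE, adjusted p = 4.6e-19). The H2 genes differ in sequence between the H2-b and H2-d haplotypes of these strains, and reads of either were aligned to the H2-b genome of C57BL/6J, so their levels are uncertain. Of 11 class II genes, 1 was called on CD, H2-DMb2, higher in DBA/2J and named here after its values were seen (9.09% called). This list does not hold H2-Ea-ps, the silenced class II gene described above, which was called as well. The inflammasome list had 11 of 24 higher in DBA/2J and 3 in 129S1/SvImJ (58.3% called). Nlrp12, a sensor of the NLR family, had 5.76 to 12.96 CPM (median 7.78) in DBA/2J and 0.273 to 1.94 CPM (median 0.911) in 129S1/SvImJ (-3.36 ± 0.60 SE, adjusted p = 3.5e-06). Naip2, which recognises bacterial secretion rods, had 6.42 to 8.23 CPM (median 7.58) in DBA/2J and 1.28 to 2.04 CPM (median 1.45) in 129S1/SvImJ (-2.27 ± 0.16 SE, adjusted p = 1.4e-21), and Mlkl, the executor of necroptosis, had 5.92 to 12.3 CPM (median 7.84) in DBA/2J and 3.08 to 4.54 CPM (median 3.82) in 129S1/SvImJ (-1.09 ± 0.17 SE, adjusted p = 2.6e-07).

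The interferon-stimulated response element is the DNA motif through which interferon factors act, and the promoter of B2m is shown because it holds one. The letters GAAA, any 2 bases and GAAA again were searched on both strands of RefSeq promoters on GRCm38.p6, which run from 250 bases before to 50 after a start. They occur in 27 of the 37 interferon-stimulated genes with a promoter in the table and in 3.99% of all 27025 genes. Of these 27 genes, 12 were higher in DBA/2J and 2 in 129S1/SvImJ. Over the whole list of 55 the counts were 32 and 2, and over all genes tested the shares were 18.2% and 17.2%. B2m was counted in the class I list and is not among the 27. The sequence is that of C57BL/6J, 5′ to 3′ along the gene, and capitals mark the match.
B2m, chr2:122147437-122147736, plus strand: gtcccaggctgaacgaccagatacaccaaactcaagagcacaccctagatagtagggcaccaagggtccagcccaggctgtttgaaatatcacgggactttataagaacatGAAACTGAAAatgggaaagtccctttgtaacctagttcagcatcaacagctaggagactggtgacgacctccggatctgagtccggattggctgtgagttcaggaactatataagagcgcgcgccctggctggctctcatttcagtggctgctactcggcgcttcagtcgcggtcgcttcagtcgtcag

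Chemokine and matrix genes that were called were mostly higher in DBA/2J, and the summed markers of some immune cell types were higher there as well. Of 32 chemokine and chemokine receptor genes, 14 were higher in DBA/2J and 1, Ccl27a, in 129S1/SvImJ (median -0.62, 46.9% called beside 35.4% of all genes). Ccl6 had 11.8 to 20.7 CPM (median 16.6) in DBA/2J and 6.30 to 11.2 CPM (median 9.46) in 129S1/SvImJ (-0.92 ± 0.22 SE, adjusted p = 3.6e-04). Of 44 extracellular matrix genes, 11 were higher in DBA/2J and 1, Efemp1, in 129S1/SvImJ, so that 27.3% were called, a smaller share than of all genes. With sample quality weights 24 were higher in DBA/2J. Col3a1, a fibrillar collagen, had 21.2 to 26.7 CPM (median 23.5) in DBA/2J and 9.08 to 14.1 CPM (median 11.3) in 129S1/SvImJ (-1.08 ± 0.36 SE, adjusted p = 0.013). Within cohort 5, 4 matrix genes were higher in DBA/2J, and Col3a1 differed by -1.05, adjusted p = 0.097. The marker counts that follow stand beside 18.2% of all genes called higher in DBA/2J and 17.2% called higher in 129S1/SvImJ. T cell markers (2 of 7 called higher in DBA/2J) summed to 6.43 to 8.88 CPM in DBA/2J and 2.08 to 3.30 CPM in 129S1/SvImJ. The log2 ratio of these T cell sums was -1.48, whereas the median difference over the markers was -0.33. NK cell markers (4 of 6 called) summed to 1.88 to 3.41 and 0.723 to 1.21 CPM, B cell markers (5 of 5) to 3.83 to 7.74 and 1.33 to 3.52 CPM, and neutrophil markers (4 of 6) to 2.12 to 4.50 and 0.638 to 1.02 CPM. Markers of monocyte-derived macrophages (2 of 8) summed to 109 to 117 and 73.4 to 100.1 CPM. In these 5 lists the strains did not overlap, whereas Kupffer cell markers did, at 214 to 380.1 and 141 to 236 CPM. Of 7 Kupffer cell markers 2 were called higher in DBA/2J and 1 higher in 129S1/SvImJ. Stellate cell marker sums were higher in DBA/2J (413 to 514 against 318 to 378 CPM) and sinusoidal endothelium sums higher in 129S1/SvImJ (382 to 416 against 302 to 363 CPM), without overlap in either. Of 7 stellate markers 3 were called, higher in DBA/2J, and the median marker difference was -0.00550. Of 7 endothelial markers 3 were called higher in 129S1/SvImJ and 2 higher in DBA/2J. Erythroid markers summed to 139 to 206 CPM in DBA/2J and 91.5 to 122 CPM in 129S1/SvImJ, adipocyte markers to 6.98 to 10.5 and 3.16 to 4.96 CPM, mesothelial markers to 4.69 to 6.57 and 1.53 to 4.86 CPM, and bile duct markers to 26.1 to 33.6 and 21.5 to 43.2 CPM. Few members of these lists were called. Of 5 erythroid markers 1 was higher in each strain. Higher in DBA/2J were 1 of 4 adipocyte, 1 of 3 mesothelial and 1 of 6 bile duct markers, and none was higher in 129S1/SvImJ. The part of the cell makeup in the chemokine, matrix and interferon results was not tested.

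**Figure D4:**
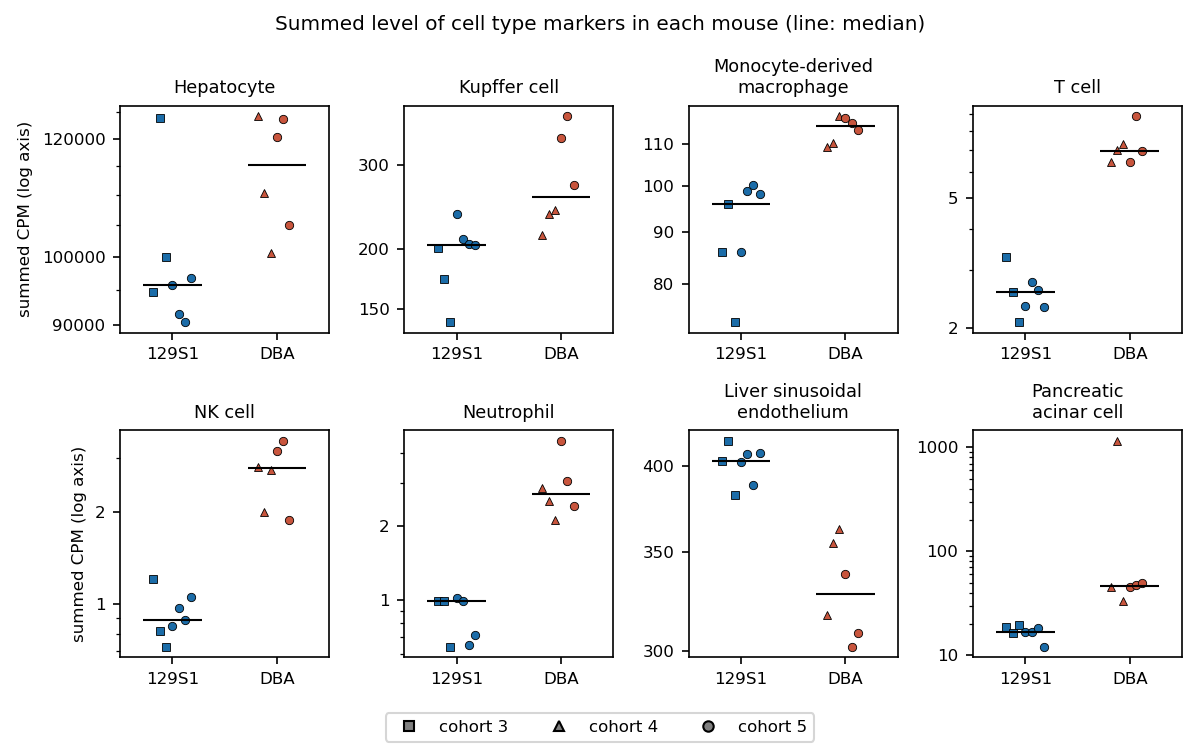
Each panel shows the summed CPM of 1 list of cell type markers on a logarithmic axis in each mouse on CD, coloured by strain, with symbols for cohort and a line at the median. T cell, NK cell, neutrophil and monocyte-derived macrophage sums lie higher in every DBA/2J mouse, sinusoidal endothelium lower, and 1 DBA/2J mouse stands at 1164 CPM of pancreatic acinar markers.

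Most chaperone genes of the endoplasmic reticulum (ER) that were called were higher in DBA/2J. The ER folds secreted proteins, and when misfolded protein builds up, the unfolded protein response raises the transcription of its chaperones. Of 31 genes of this response and the related heat shock and amino acid responses, 17 were higher in DBA/2J, 2, Asns and Sesn2, in 129S1/SvImJ, and 12 did not pass (median -0.62, 61.3% called beside 35.4% of all genes). Within cohort 5 the counts were 15 and 3, and on WD 13 and 2. Without DBA/2J replicate 2, the liver with pancreatic acinar markers, they were 16 and 2. Hspa5, the ER chaperone BiP, had 900.4 to 2092 CPM (median 1412) in DBA/2J and 508 to 687 CPM (median 619) in 129S1/SvImJ, a 2.31-fold difference without overlap (-1.21 ± 0.24 SE, adjusted p = 2.5e-05). Creld2, an ER disulfide isomerase, had 72.8 to 162 CPM (median 132) in DBA/2J and 29.6 to 60.1 CPM (median 43.1) in 129S1/SvImJ (-1.52 ± 0.34 SE, adjusted p = 1.8e-04). Calr, or calreticulin, which folds glycoproteins, had 1115 to 1572 CPM (median 1309) in DBA/2J and 873 to 1181 CPM (median 970.3) in 129S1/SvImJ, with some overlap (-0.42 ± 0.10 SE, adjusted p = 5.5e-04). Hsp90b1, the ER form of Hsp90, was chosen after its values were seen, had 799 to 1271 CPM (median 937) in DBA/2J and 551 to 815 CPM (median 636) in 129S1/SvImJ with overlap (-0.62 ± 0.14 SE, adjusted p = 2.0e-04), and shares its locus with other annotated genes. The cytosolic heat shock genes Hspb1, with 21.8 to 63.0 CPM (median 34.7) in DBA/2J and 8.21 to 14.0 CPM (median 9.95) in 129S1/SvImJ (-1.77 ± 0.29 SE, adjusted p = 4.6e-07), and Hsph1, with 65.0 to 132 CPM (median 88.7) in DBA/2J and 24.8 to 38.5 CPM (median 31.6) in 129S1/SvImJ (-1.49 ± 0.25 SE, adjusted p = 1.1e-06), moved the same way. Asns, the asparagine synthetase that the amino acid response induces through ATF4, was higher in 129S1/SvImJ, with 3.20 to 7.76 CPM (median 5.13) in 129S1/SvImJ and 0.796 to 1.41 CPM (median 0.972) in DBA/2J (2.26 ± 0.51 SE, adjusted p = 2.0e-04).

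The promoters of 4 of these chaperones are shown because they hold the ER stress response element, to which NF-Y and ATF6 bind. Its letters, CCAAT, any 9 bases and CCACG, were searched on both strands. They occur in 37 of 27025 genes (0.137%) and in 6 of the 29 listed genes with a promoter in the table, Hspa5, Hsp90b1, Dnajc3, Pdia6, Creld2 and Calr, of which all but Dnajc3 were called, each higher in DBA/2J. The first base of the match lies 65 bases before the start in Hspa5, 126 in Creld2, 162 in Calr, and 212 and 107 in Hsp90b1. Capitals mark the matches in the C57BL/6J reference, 5′ to 3′ along each gene, and the sequences of the 2 strains at these promoters were not analysed here.
Hspa5, chr2:34771840-34772139, plus strand: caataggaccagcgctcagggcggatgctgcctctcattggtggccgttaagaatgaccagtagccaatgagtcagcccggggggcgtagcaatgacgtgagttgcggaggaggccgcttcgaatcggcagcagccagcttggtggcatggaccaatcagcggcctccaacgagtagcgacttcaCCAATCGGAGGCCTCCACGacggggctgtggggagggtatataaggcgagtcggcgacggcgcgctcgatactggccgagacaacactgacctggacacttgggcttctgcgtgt
Creld2, chr15:88819396-88819695, plus strand: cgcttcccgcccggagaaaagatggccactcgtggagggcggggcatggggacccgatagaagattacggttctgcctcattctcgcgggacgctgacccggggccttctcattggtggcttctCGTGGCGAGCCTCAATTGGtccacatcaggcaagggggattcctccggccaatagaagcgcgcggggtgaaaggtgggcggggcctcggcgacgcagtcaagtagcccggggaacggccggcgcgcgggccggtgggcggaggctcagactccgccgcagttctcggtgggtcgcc
Calr, chr8:84846882-84847181, minus strand: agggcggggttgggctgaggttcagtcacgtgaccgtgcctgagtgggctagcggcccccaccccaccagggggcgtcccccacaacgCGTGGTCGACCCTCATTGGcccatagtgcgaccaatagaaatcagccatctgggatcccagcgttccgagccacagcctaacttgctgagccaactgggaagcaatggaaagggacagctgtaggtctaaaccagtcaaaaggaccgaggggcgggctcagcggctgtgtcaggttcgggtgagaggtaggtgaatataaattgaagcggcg
Hsp90b1, chr10:86705395-86705694, minus strand: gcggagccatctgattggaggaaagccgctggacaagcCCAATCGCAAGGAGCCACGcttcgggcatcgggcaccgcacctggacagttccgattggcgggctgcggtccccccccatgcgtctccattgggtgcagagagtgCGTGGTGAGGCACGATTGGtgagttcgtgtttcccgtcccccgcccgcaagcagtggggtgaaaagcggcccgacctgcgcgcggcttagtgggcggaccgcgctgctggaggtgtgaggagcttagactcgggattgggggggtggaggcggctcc

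Clock genes differed in both directions. In the liver clock, ARNTL with CLOCK or NPAS2 drives the Per, Cry, Ciart and Bhlhe genes through E-boxes, and their products repress it in turn, so the activators and the repressors peak at opposite times of day. Of 19 clock genes, 7 were higher in 129S1/SvImJ and 5 in DBA/2J (63.2% called beside 35.4% of all genes). The activators Arntl, Clock and Npas2 were each called higher in DBA/2J. Arntl had 7.74 to 34.6 CPM (median 11.1) in DBA/2J and 1.88 to 4.18 CPM (median 3.11) in 129S1/SvImJ (-2.05 ± 0.47 SE, adjusted p = 2.9e-04), and Npas2 had 1.73 to 14.0 CPM (median 4.26) in DBA/2J and 0.105 to 0.755 CPM (median 0.517) in 129S1/SvImJ (-3.21 ± 0.70 SE, adjusted p = 1.2e-04). Of the 8 Per, Cry, Ciart and Bhlhe genes in the list, Per2, Per3, Ciart, Bhlhe40 and Bhlhe41 were called, higher in 129S1/SvImJ, whereas Per1 (0.82, adjusted p = 0.070), Cry1 (-0.27, adjusted p = 0.51) and Cry2 (0.22, adjusted p = 0.17) did not pass. Ciart had 9.68 to 29.7 CPM (median 13.3) in 129S1/SvImJ and 0.971 to 2.98 CPM (median 1.57) in DBA/2J (3.03 ± 0.55 SE, adjusted p = 5.2e-06), and Bhlhe41 had 4.55 to 11.9 CPM (median 8.38) in 129S1/SvImJ and 0.861 to 4.13 CPM (median 1.90) in DBA/2J (1.95 ± 0.34 SE, adjusted p = 1.6e-06). The ranges of Arntl, Npas2, Ciart and Bhlhe41 did not overlap, and within cohort 5 the differences were -2.14, adjusted p = 5.9e-04 for Arntl and 3.42, adjusted p = 4.5e-04 for Ciart. On WD, 1 clock gene was higher in 129S1/SvImJ and 2 in DBA/2J, beside 15.2% and 16.8% of all genes, and the Ciart difference there was 0.52, adjusted p = 0.30. All mice were killed in one afternoon window after a morning fast, and the time of each mouse is not in the labels, so a strain difference in phase and a difference in time of killing cannot be told apart. Ciart was highest in 129S1/SvImJ replicate 7, which was also highest for Cyp7a1, another gene with a daily rhythm.

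The promoters of Ciart and Bhlhe41 are shown for their E-boxes. The letters CACGTG, which read the same on both strands, occur in 5 of the 16 clock genes with a promoter in the table, Per1, Cry1, Tef, Ciart and Bhlhe41, and in 8.09% of all genes. Of these 5, Tef, Ciart and Bhlhe41 were called, each higher in 129S1/SvImJ. The matches begin 116, 58 and 44 bases before the start in Ciart and 153 bases before it in Bhlhe41, and are in capitals.
Ciart, chr3:95882179-95882478, minus strand: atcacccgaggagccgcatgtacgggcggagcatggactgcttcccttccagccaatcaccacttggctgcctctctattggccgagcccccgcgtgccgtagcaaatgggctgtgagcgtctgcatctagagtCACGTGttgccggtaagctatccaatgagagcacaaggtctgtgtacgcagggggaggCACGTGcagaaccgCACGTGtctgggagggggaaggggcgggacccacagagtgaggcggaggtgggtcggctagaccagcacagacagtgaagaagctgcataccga
Bhlhe41, chr6:145865371-145865670, minus strand: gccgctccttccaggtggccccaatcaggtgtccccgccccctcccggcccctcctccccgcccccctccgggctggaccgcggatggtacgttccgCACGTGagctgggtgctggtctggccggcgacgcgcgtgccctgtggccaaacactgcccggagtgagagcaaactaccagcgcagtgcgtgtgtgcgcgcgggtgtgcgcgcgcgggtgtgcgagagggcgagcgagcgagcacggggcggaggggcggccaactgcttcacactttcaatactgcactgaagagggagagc

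Small differences in respiratory chain genes mostly favoured 129S1/SvImJ. Of 77 nuclear genes of oxidative phosphorylation, 36 were higher in 129S1/SvImJ and 3, Ndufs5 and Ndufa6 among them, higher in DBA/2J (median 0.15, 50.6% called beside 35.4% of all genes), and within cohort 5 the counts were 22 and 1. Cox7a2l, which joins complexes III and IV into supercomplexes, had 53.8 to 61.6 CPM (median 58.7) in 129S1/SvImJ and 31.3 to 41.8 CPM (median 34.5) in DBA/2J (0.72 ± 0.06 SE, adjusted p = 1.0e-17). Cox6b1, a complex IV subunit, had 174 to 200.1 CPM (median 181) in 129S1/SvImJ and 104 to 137 CPM (median 119) in DBA/2J (0.64 ± 0.06 SE, adjusted p = 1.5e-14). Ndufs5, a complex I subunit, had 23.4 to 27.3 CPM (median 26.7) in DBA/2J and 9.38 to 11.5 CPM (median 10.1) in 129S1/SvImJ (-1.37 ± 0.07 SE, adjusted p = 4.9e-29), against the direction of the list. Of 13 protein-coding genes of the mitochondrial genome, 7 were higher in 129S1/SvImJ and none in DBA/2J (limma-voom, median 0.32, 53.8% called), and within cohort 5 4 were. mt-Co1, the catalytic subunit of complex IV, had 28345 to 32071 CPM (median 29679) in 129S1/SvImJ and 22149 to 25298 CPM (median 24381) in DBA/2J (0.32 ± 0.08 SE, adjusted p = 6.9e-04), and within cohort 5 it did not pass (0.26, adjusted p = 0.068). mt-Nd6, the one encoded on the light strand, had 2261 to 2605 CPM (median 2485) in 129S1/SvImJ and 1106 to 1717 CPM (median 1652) in DBA/2J (0.70 ± 0.14 SE, adjusted p = 1.8e-05). mt-Nd6 overlaps mt-Nd5 on the opposite strand. On WD the nuclear list had 11 of 77 genes higher in 129S1/SvImJ and 6 in DBA/2J, beside 15.2% and 16.8% of all genes. The lean toward 129S1/SvImJ on CD was thus not above the share of all genes on WD. The difference between diets passed for 10 of the 77, all more positive on CD, beside 4.19% of all genes.

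In the remaining lists, 34.6% to 55.6% of the members were called, beside 35.4% of all genes. Of 18 carboxylesterases 5 were higher in 129S1/SvImJ and 2 in DBA/2J, of 25 coagulation genes 4 and 6, of 9 alpha-1-antitrypsin and inter-alpha inhibitor genes 0 and 5, of 26 targets of the oxidative stress factor NRF2 7 and 3, and of 26 hepatokines 6 and 3. Genes of the pericentral zone of the lobule counted 8 and 1 of 20, those of the periportal zone 6 and 4 of 19, hepatocyte transcription factors 6 and 5 of 27, and cell cycle genes 5 and 6 of 28. Within cohort 5 the periportal counts were 3 and 4.

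The strain difference itself depended on diet for 1894 genes (9.91%), by the test of the CD difference minus the WD difference in the same fit. It was more negative on CD for 1094 of them (5.72%) and more positive for 800 (4.19%), a share more positive of 42.2% that upper-quartile scaling moved to 28.2%. Of the 227 genes called in opposite directions on the diets, 186 were higher in DBA/2J on CD and in 129S1/SvImJ on WD, and 41 were the reverse. Inflammatory lists differed between diets as follows. Of the 32 chemokine genes, 18 were higher in 129S1/SvImJ on WD and 2 in DBA/2J, and 18 passed the test of the difference between diets, all more negative on CD. For the 44 matrix genes these counts were 12, 4 and 15, and for the 11 MHC class II genes 9, 0 and 9.

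Ccl2, the chemokine that draws monocytes, had 0.515 to 0.942 CPM (median 0.789) in DBA/2J and 0.217 to 0.443 CPM (median 0.294) in 129S1/SvImJ on CD (-1.28 ± 0.49 SE, adjusted p = 0.034) and 3.18 to 5.74 CPM (median 5.25) in 129S1/SvImJ and 0.695 to 2.16 CPM (median 1.59) in DBA/2J on WD, where the strains had changed places (1.90, adjusted p = 4.4e-08). The difference between diets was -3.18 ± 0.57 SE, adjusted p = 7.5e-05. Leaving out 129S1/SvImJ replicate 1, 3 or 4 or DBA/2J replicate 2, 5 or 6 ended the CD call (adjusted p = 0.055 to 0.064), and within cohort 5 the CD difference was -1.32, adjusted p = 0.13. Cd207, or langerin, a lectin of some dendritic cells and macrophages, had 13.6 to 20.1 CPM (median 18.3) in DBA/2J and 0.867 to 4.21 CPM (median 2.91) in 129S1/SvImJ on CD (-2.90 ± 0.28 SE, adjusted p = 7.8e-15) and 9.44 to 16.7 CPM (median 13.02) in 129S1/SvImJ and 5.30 to 11.2 CPM (median 7.60) in DBA/2J on WD (0.69, adjusted p = 0.0088), and the difference between diets was -3.59 ± 0.35 SE, adjusted p = 6.0e-12. Cib3, a calcium-binding protein gene, had 5.05 to 11.5 CPM (median 8.91) in DBA/2J and 0.990 to 2.63 CPM (median 1.66) in 129S1/SvImJ on CD (-2.28 ± 0.42 SE, adjusted p = 6.8e-06) and 2.31 to 8.32 CPM (median 6.46) in 129S1/SvImJ and 1.06 to 3.48 CPM (median 1.75) in DBA/2J on WD (1.47, adjusted p = 0.0044). The omega-hydroxylase Cyp4a12b had 75.4 to 217 CPM (median 107) in DBA/2J and 22.8 to 59.6 CPM (median 42.9) in 129S1/SvImJ on CD (-1.61 ± 0.38 SE, adjusted p = 3.3e-04) and 122 to 302 CPM (median 249) in 129S1/SvImJ and 67.7 to 190.3 CPM (median 114) in DBA/2J on WD (1.08, adjusted p = 0.022), and within cohort 5 the CD difference was -1.21, adjusted p = 0.067. For Cib3 and Cyp4a12b the differences between diets were -3.75 ± 0.60 SE, adjusted p = 1.4e-05 and -2.70 ± 0.54 SE, adjusted p = 3.3e-04.

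Some genes lost or gained a strain gap rather than turning it. Tff3, a trefoil peptide secreted with mucus, had 16.0 to 41.9 CPM (median 20.0) in DBA/2J and 0.0425 to 0.238 CPM (median 0.105) in 129S1/SvImJ on CD (-7.35 ± 0.92 SE, adjusted p = 1.8e-10), and 0.0196 to 0.245 CPM (median 0.186) in 129S1/SvImJ and 0.239 to 0.947 CPM (median 0.381) in DBA/2J on WD, so that the gap closed from the DBA/2J side (-5.42 ± 1.48 SE, adjusted p = 0.010 for the difference between diets). Chil1, a chitinase-like protein, had 0.0652 to 0.247 CPM (median 0.122) in DBA/2J and 0.0206 to 0.105 CPM (median 0.0434) in 129S1/SvImJ on CD and 1.27 to 3.41 CPM (median 2.33) in 129S1/SvImJ and 0.0433 to 0.605 CPM (median 0.148) in DBA/2J on WD (-4.84 ± 0.87 SE, adjusted p = 8.5e-05 for the difference between diets). Mmp12, the macrophage elastase, had 0.310 to 0.718 CPM (median 0.554) in DBA/2J and 0.231 to 0.492 CPM (median 0.330) in 129S1/SvImJ on CD and 12.8 to 36.1 CPM (median 28.9) in 129S1/SvImJ and 1.38 to 3.12 CPM (median 2.62) in DBA/2J on WD (-4.05 ± 1.37 SE, adjusted p = 0.043 for the difference between diets). Psg18, a pregnancy-specific glycoprotein gene, had 1 read over the 129S1/SvImJ livers and 28 over the DBA/2J livers on CD, a ratio of 33.5 (exact 95% interval 5.54 to 1371), and 0.973 to 10.4 CPM in DBA/2J on WD, where 129S1/SvImJ reached 0.0204 CPM. Slc38a5 held its direction on both diets with a smaller gap on WD, where it had 0.493 to 1.04 CPM (median 0.627) in 129S1/SvImJ and 0 to 0.0427 CPM (median 0) in DBA/2J (2.88 ± 0.96 SE, adjusted p = 0.042 for the difference between diets).

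**Figure D5:**
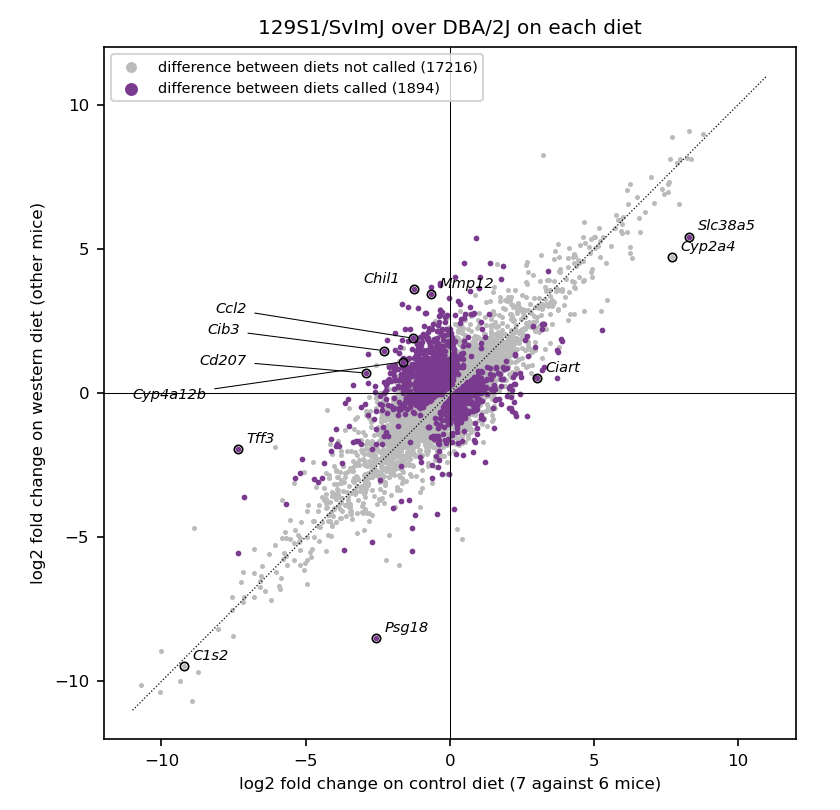
Each point is 1 gene, with the fitted log2 fold change of 129S1/SvImJ over DBA/2J on CD on the horizontal axis and on WD, in other mice, on the vertical axis. The dotted line marks equal values. The 1894 genes whose difference changed with diet are purple, and Ccl2, Cib3, Cd207 and Cyp4a12b sit in the upper left part, lower in 129S1/SvImJ on CD and higher on WD.

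Set among all 7 strains on CD, neither strain accounted for most of the differences. The 129S1/SvImJ mean lay outside the range of the other 6 strain means in 2067 called genes (30.5%) and the DBA/2J mean in 2130 (31.5%), beside 19.7% and 20.6% of all tested genes. Called genes were selected by a difference between these same 2 strains. A share above that of all tested genes is therefore no separate finding. For Cyp7a1 the 129S1/SvImJ mean, 396 CPM, was above those of the other 5 strains, 39.4 CPM in PWK/PhJ to 181 CPM in A/J, and for B2m the DBA/2J mean, 1980.1 CPM, was above 1306 CPM in CAST/EiJ to 1707 CPM in WSB/EiJ. For Aox3 the DBA/2J mean, 130.0 CPM, was below those of the other 5 strains, 335 CPM in C57BL/6J to 1584 CPM in CAST/EiJ.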

How the data were processed

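Livers were homogenized in TRIzol and mRNA libraries prepared with a SMARTER kit were sequenced on a BGISEQ-500 instrument, 1 per mouse. Per the labels and the study's methods, the authors mapped reads with STAR 2.7.1a to the C57BL/6J genome (GRCm38/mm10) for all strains and counted them per gene. The deposited values are these raw counts for 53465 genes, after removal of 4 summary lines that name no gene and held, over the 13 libraries, 3.34% to 7.07% unmapped reads, 9.73% to 10.5% multimapping reads, 4.33% to 5.28% intergenic or intronic reads, 4.79% to 5.10% ambiguous reads, and the strand setting of the counting is not given in the sources used here. Of the gene IDs, 53360 matched GENCODE annotation of GRCm38.

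Counts of all 93 mice were fitted with limma-voom (limma 3.58.1, edgeR 4.0.16, R 4.3.3) as 14 strain and diet groups, with TMM scaling and filterByExpr (minimum count 10). The contrast 129S1/SvImJ minus DBA/2J was taken on CD and on WD, and their difference as the interaction. P-values were adjusted over all genes by Benjamini-Hochberg. CPM values use TMM-scaled library sizes. Replicates are separate mice, numbered in accession order. Ratios for genes with 1 to 3 reads in a strain carry exact 95% intervals that cover counting error only. Promoters are RefSeq windows on GRCm38.p6.

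Named genes were the 12 largest non-overlapping calls in each direction whose higher strain averaged 1 or more in log2 CPM, up to 4 calls and the 2 highest genes of each list, genes with known strain variants, and the 5 largest interactions and 5 largest opposite calls, of which a part is described, and some genes are not reported here. Members named to explain a count of 5 or fewer were chosen after their values were seen. The genes, lists and comparison were chosen with earlier results of these data known. On simulated counts of 17861 genes, limma-voom recovered 189 of 200 genes changed 2-fold, with 11 false calls, and edgeR recovered 190, with 4 false calls. The simulation gave all genes the same spread, changed no genes of low count and held no other difference between groups. These rates therefore do not give the error rates in the real counts. Alternatives were edgeR's quasi-likelihood test, DESeq2 1.42.0, upper-quartile scaling, other count filters, fits to the 13 mice or to cohort 5, cohort or RNA integrity as a covariate, quality weights, and each mouse left out in turn.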

Additional observations from a re-analysis of the deposited data

Results flagged for a closer look

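Of the values tested within each strain on CD, 25 of 248 groups had a mouse far from the others by Dixon's test, and chance alone flags about 1 in 20 groups. 129S1/SvImJ replicate 7 stood apart most often, with Cyp7a1 at 1010.2 CPM, Slco1a4 at 142 CPM, Scd1 at 3335 CPM, Acadm at 601 CPM, Cyp2c39 at 284 CPM, Elovl3 at 35.3 CPM, Ciart at 29.7 CPM and Psg18 at 0.0211 CPM. The other single-gene values were Srd5a2 at 0.0246 CPM in 129S1/SvImJ replicate 1, Mrap2 at 0.0867 CPM in 129S1/SvImJ replicate 4, H2-Ea-ps at 0.0210 CPM and Cfhr2 at 669 CPM in 129S1/SvImJ replicate 6, Elovl3 at 758 CPM, Npas2 at 14.0 CPM and Arntl at 34.6 CPM in DBA/2J replicate 1, Slc38a5 at 0.416 CPM and Ndufs5 at 23.4 CPM in DBA/2J replicate 2, Myom2 at 1.17 CPM and Igfbp3 at 29.3 CPM in DBA/2J replicate 3 and Ifi44l at 0.0224 CPM and Ifi27 at 199 CPM in DBA/2J replicate 5. Summed markers stood apart for hepatocytes in 129S1/SvImJ replicate 2 (123831 CPM), T cells in DBA/2J replicate 5 (8.88 CPM), B cells in DBA/2J replicate 4 (7.74 CPM) and pancreatic acinar cells in DBA/2J replicate 2 (1164 CPM). Several of the genes far apart in low-level groups rest on few reads, and 1 read is worth about 0.02 CPM here.

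The strain difference differed between CD and WD for 25 of the named genes, by the interaction test in limma-voom at an adjusted p of 0.05. In log2 units of the CD difference minus the WD difference, it was more negative on CD for Tff3 (-5.42), Chil1 (-4.84), Mmp12 (-4.05), Cib3 (-3.75), Cd207 (-3.59), Ccl2 (-3.18), Cyp4a12b (-2.70), Gbp11 (-2.14), Mup9 (-1.94), Col3a1 (-1.78), Ccl6 (-1.59), Cyp4a32 (-1.58), Myo5a (-1.48), C4a (-1.32), Hspb1 (-1.17), Casp1 (-0.81), Naip2 (-0.78), Ifi202b (-0.66). It was more positive on CD for Psg18 (5.93), Slc38a5 (2.88), Ciart (2.51), Aox3 (0.80), Asl (0.78), Ndufs5 (0.32), Cox7a2l (0.28). Diet, mice and partly cohort differ between the 2 contrasts, and their parts were not tested.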

How the results depend on the processing

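The number of genes called on CD, 6768, ranged from 4826 with cohort 5 alone (4 against 3 mice) to 7978 with sample quality weights, was 6950 with edgeR and 7075 with DESeq2, and 6240 to 6500 without each mouse in turn. Sample quality weights raised the number of genes whose strain difference differed between diets from 1894 to 3320. Upper-quartile scaling moved the share of WD calls higher in 129S1/SvImJ from 47.5% to 57.3% and the share of diet-dependent genes more positive on CD from 42.2% to 28.2%, and testing all genes with any count moved the latter to 53.2%. Of 96 named genes called on CD, 82 kept call and direction under all alternatives in which they were tested, and none changed direction. The rest lost the call in at least 1, most often within cohort 5 (11 genes), and testing all genes with any count ended the calls of Cyp3a11, Mup20, Col3a1 and Cyp4a14 (adjusted p = 0.17, 0.34, 0.15 and 0.074). Beside the cohort 5 values in the report, the log2 difference moved by over 1.5 times in fold within cohort 5 to -9.53 for Moxd1, 9.93 for Myom2, 9.65 for Slc38a5, 2.58 for Nr1i3, -5.02 for Mup16, 2.69 for Klrd1 and -3.28 for Disc1, each a wider gap. In edgeR Myom2 was 6.21 and Slc38a5 6.74, still called. Uncalled C4b had log2 fold changes of -0.00024 in cohort 5 fitted alone and -0.0484 to 0.0731 without each mouse in turn, and uncalled Myo5a -0.12 and -0.13 in cohort 5. Within cohort 5 the unmapped share differed by -2.27 percentage points (129S1/SvImJ minus DBA/2J, adjusted p = 0.23, exact permutation test, where 4 against 3 mice cannot give an unadjusted p below 0.0571), and the multimapping share by -0.0859. Without each mouse in turn the unmapped difference was -2.10 to -1.69, the multimapping difference -0.0423 to 0.0839 and the ambiguous difference -0.00937 to 0.0423 points. With the median over markers in place of their sum, the log2 ratio of 129S1/SvImJ to DBA/2J moved for hepatocyte markers from -0.21 to 0.10, for Kupffer cell markers from -0.51 to -0.83, for T cell markers from -1.48 to -0.33, for neutrophil markers from -1.76 to -1.06, for liver sinusoidal endothelium markers from 0.28 to 0.59, for hepatic stellate cell markers from -0.44 to -0.00550, for cholangiocyte markers from 0.09 to -0.17, for adipocyte markers from -1.17 to -0.0333, for erythroid cell markers from -0.72 to -1.66. The causes of these changes were not tested. No paired analysis was possible because the replicate numbers follow accession order and the labels give none. Depth, at 40020424 or more reads on genes, limits genes under about 0.1 CPM, where a liver holds a few reads.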
